A study of Mus musculus with 12 samples.

Results

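Ribosome footprints and mRNA can move apart when a cell is stimulated, and the change of translational efficiency (TE) measures by how much. It was taken here for RAW264 cells, a mouse macrophage line, 30 min after lipopolysaccharide (LPS), the outer membrane glycolipid of Gram-negative bacteria that macrophages sense. For each gene the change in mRNA (LPS minus basal) was subtracted from the change in ribosome-protected fragments (RPF, or footprints), both on the log2 scale. The comparison holds 8 of the 12 libraries of the series, namely mRNA and RPF from untreated (basal) cells and from cells given LPS at 100 ng/ml for 30 min, with 2 independent biological replicates in each of the 4 groups. No genotype or transgene distinguishes the groups. All of them, basal included, received cycloheximide at 100 µg/ml before extraction. The other 4 libraries came from cells given LPS and dexamethasone (DEX, a glucocorticoid) at 10 µM. Of 9621 genes listed in the files, 7601 had a mean of at least 10 CPM (reads scaled to the library total) in both assays and were tested. The members of the comparison are these genes, chosen by their mean level over basal and LPS libraries together. A gene under 10 CPM in basal cells can therefore enter through the LPS libraries, and the reverse. For such low genes, membership is not independent of the change.

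A ribosome on an mRNA shields a short stretch of it from nuclease, so footprint reads report how many ribosomes sit on a message and mRNA reads report how much message there is. Messages for ribosomal proteins and elongation factors carry a terminal oligopyrimidine (TOP) tract, a C followed by a run of C and T bases at the 5′ end, through which the growth-signalling kinase mTOR and the RNA-binding protein Larp1 are known to regulate their translation. Mitochondria translate the messages of their own genome on separate ribosomes that cycloheximide does not hold. In macrophages LPS acts through the receptor Tlr4, and transcription of cytokine, immediate early and NF-kB feedback genes starts within minutes. TE is a ratio. A rise can come from more footprints, from less mRNA, or from both, and each side is given below.

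The 4 mRNA libraries held 1475120 to 2276336 reads and the 4 RPF libraries 821946 to 1520612, with both RPF LPS libraries the shallowest. The macrophage markers were present in every library, with 14 of 14 listed and a sum of 6724 to 7415 CPM in mRNA and 9230 to 10094 CPM in footprints. One mRNA library, that of basal replicate 1, differed from the rest. Its Spearman correlation with the other 3 mRNA libraries was 0.871 to 0.916, against 0.903 to 0.964 among those 3. In it, 101 genes, 6 of them tested, stood at 50 CPM or more while at 5 CPM or less in the other 3. Markers of other cell types (9 of 37 listed, none of the 9 at 0 in this library) summed to 2532 CPM in it, against 47.6 to 116 CPM in the other 3 mRNA libraries and 193 to 264 CPM in the footprints. Results are therefore given with all 8 libraries and, where they differ, with the 7 that leave it out. Each library was centred on its assay's median, which removed an offset between LPS and basal libraries of 0.24 (log2) in mRNA and -0.06 in footprints.

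With limma-trend and Benjamini-Hochberg adjustment at 0.05, TE rose for 557 of the 7601 genes (7.33%) and fell for 399 (5.25%). Counts of TE calls in the gene lists below are to be read against these shares. Without centring the same libraries gave 284 higher (3.74%) and 1072 lower (14.1%), a different split between directions, and changes below are relative to the median gene of each library. These are bulk samples, in which fewer cells of a type and less RNA per cell cannot be told apart. The mRNA test passed for 510 genes higher (6.71%) and 651 lower (8.56%), and the RPF test for 115 higher (1.51%) and 102 lower (1.34%). Without centring these shares were 17.4% and 4.32% for mRNA and 1.09% and 1.58% for RPF, and without mRNA basal replicate 1 they were 4.25% and 6.62% for mRNA and 2.33% and 1.97% for RPF. Genes with higher TE had a median TE change of 1.03, made of a median mRNA change of -0.70 and a median RPF change of 0.33. The mRNA part was the larger in 80.8% of them, and 422 of the 557 also passed as lower in mRNA, against 81 as higher in footprints. Genes with lower TE had a median of -1.07, with mRNA at 0.64 and RPF at -0.40, and the mRNA part was the larger in 69.4%. Leaving out mRNA basal replicate 1 gave 545 higher (7.17%) and 356 lower (4.68%). Of the higher genes 480 were called in both fits (86.2% of the first list and 88.1% of the second), as were 288 of the lower genes (72.2% and 80.9%), and 0 of the called genes changed sign. Every one of the 956 calls kept its direction when each of the 8 libraries was left out in turn, although the counts fell to 324 to 342 higher without mRNA LPS replicate 2, RPF basal replicate 2 or either RPF LPS library. The lower calls fell to 129 to 211 without any of those or RPF basal replicate 1. In all, 252 higher and 82 lower calls held in each of the 8 fits.

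**Figure D1:**
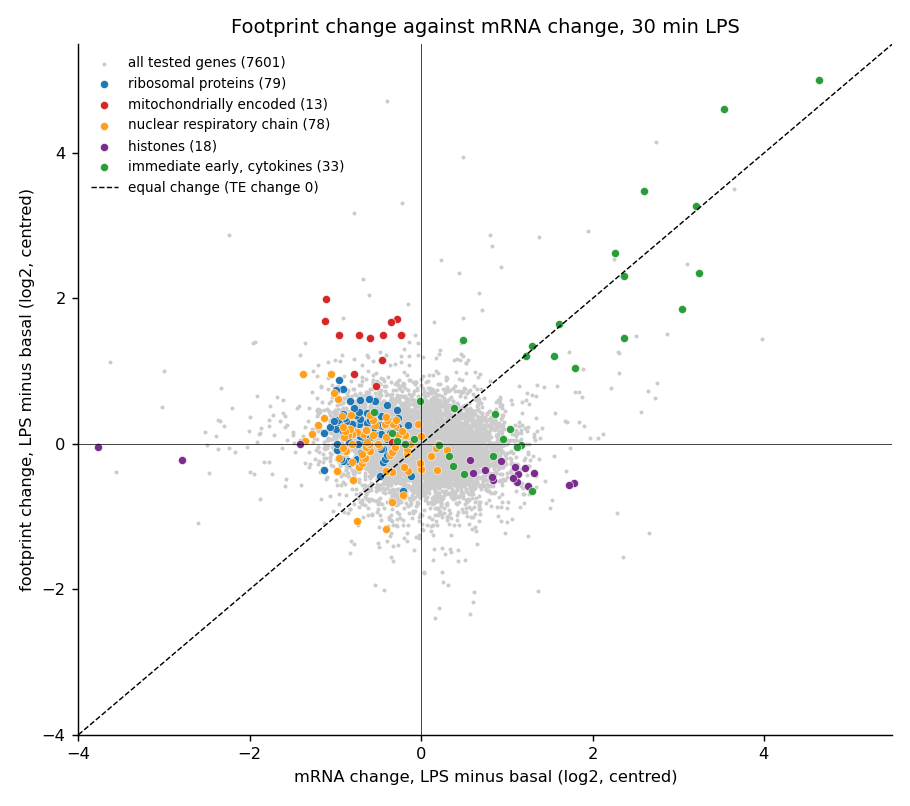
Each point is a gene, with its centred mRNA change (LPS minus basal, log2) on the horizontal axis and its centred footprint change on the vertical axis, and the dashed line marks equal change. Ribosomal proteins (79 genes) and mitochondrially encoded genes (13) mostly lie above the line at lower mRNA, 15 of the 18 histones lie below it, and the immediate early and cytokine genes spread to the upper right, on both sides of it.

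Footprints and mRNA passed the test in opposite directions for 50 genes. Lower mRNA with higher footprints was called for 46 (0.605% of the genes tested), of which 15 were ribosomal proteins of the 2 subunit lists, 6 were mitochondrially encoded and 2 were thymosins of the actin list. Others of the 46 are annotated as pseudogenes (Rpl9-ps6, Rps3a2, Rpl27-ps3, Gm10269 and Gm15013). Rpl9, Rps3a1 and Rpl27 are among the 46 too and could share reads with such copies, so the 46 may not all be separate genes. Of the 46, 38 were called so again without mRNA basal replicate 1. Higher mRNA with lower footprints was called for 4 (0.0526%), Dchs1, Mknk2, Fam168b and Hnrnpl, and 3 of the 4 again with 7 libraries. Dchs1 passed the level filter only through its LPS mRNA, with a mean of 5.22 CPM in basal mRNA. The 7 libraries gave 61 genes of the first kind (0.803%) and 7 of the second (0.0921%), and the 8 without centring 23 (0.303%) and 20 (0.263%). The counts moved with single libraries: the 46 ranged from 8 to 68 and the 4 from 0 to 12 over the leave-outs, with 8 without RPF LPS replicate 1, 11 without RPF LPS replicate 2, 14 without RPF basal replicate 2 and 25 without RPF basal replicate 1. Of the second kind 0 were left without RPF basal replicate 2 or RPF LPS replicate 2, 1 without mRNA LPS replicate 2 or RPF basal replicate 1, 2 without mRNA LPS replicate 1, and 12 without mRNA basal replicate 2.

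The family with the highest median TE change was the set of 13 proteins encoded in mitochondrial DNA, which build the respiratory chain and ATP synthase. Of the 13, 12 rose in TE and none fell, with a median of 2.01, against -0.03 over all genes tested. In footprints 11 of 13 rose (median 1.5), and in mRNA 6 fell (median -0.53). Relative to the mean of its assay, the median member stood at -0.58 and -0.87 in the basal footprint libraries and at 0.67 and 0.83 with LPS. In mRNA it stood at 0.12 and 0.46 in basal cells and at -0.03 and -0.60 with LPS, so the groups did not overlap in either assay, with the wider gap in footprints. The call held in each leave-out for 10 members, and 13 of 13 passed without mRNA basal replicate 1.

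The cytochrome oxidase subunit mt-Co2 (ENSMUSG00000064354) had 354 and 274 CPM of footprints in the basal libraries and 927 and 1009 CPM with LPS. Its mRNA went from 10021 and 12217 CPM to 7401 and 4870.1 CPM. No library of one group reached the other in either assay, and TE changed by 2.81 ± 0.25 (SE, adjusted p = 0.000311). The complex I subunit mt-Nd3 (ENSMUSG00000064360) had the highest TE change of the family, 3.10 ± 0.29 (SE, adjusted p = 0.000311), with footprints from 65.6 and 81.5 to 274 and 294 CPM and mRNA from 1293 and 1869 to 1057 and 687 CPM. The catalytic oxidase subunit mt-Co1 (ENSMUSG00000064351) rose in footprints from 974 and 666 to 2394 and 2537 CPM, while its mRNA groups overlapped (13454 and 16382 CPM basal, 16526 and 11389 CPM with LPS), so its TE rise of 2.02 ± 0.27 (SE, adjusted p = 0.00185) came with no mRNA call. Further complex I and oxidase subunits measured 2.46 (mt-Nd2), 2.05 (mt-Nd1) and 2.22 (mt-Co3), each called lower in mRNA and higher in footprints. The mRNA groups of mt-Nd1 overlapped, with 5071 and 6769 CPM in basal cells and 5332 and 3897 CPM with LPS (mRNA adjusted p = 0.048). The member without a call was the ATP synthase subunit mt-Atp8 (ENSMUSG00000064356), with 369 and 334 CPM of footprints in basal cells and 332 and 355 CPM with LPS (TE 0.37 ± 0.47 (SE, adjusted p = 0.641)). It was singled out after its value was seen. Its reading frame overlaps that of mt-Atp6, and how reads of the overlap were assigned is not given in the sources used here. The share of these footprints that comes from mitochondrial ribosomes, which cycloheximide does not hold, was not tested.

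**Figure D2:**
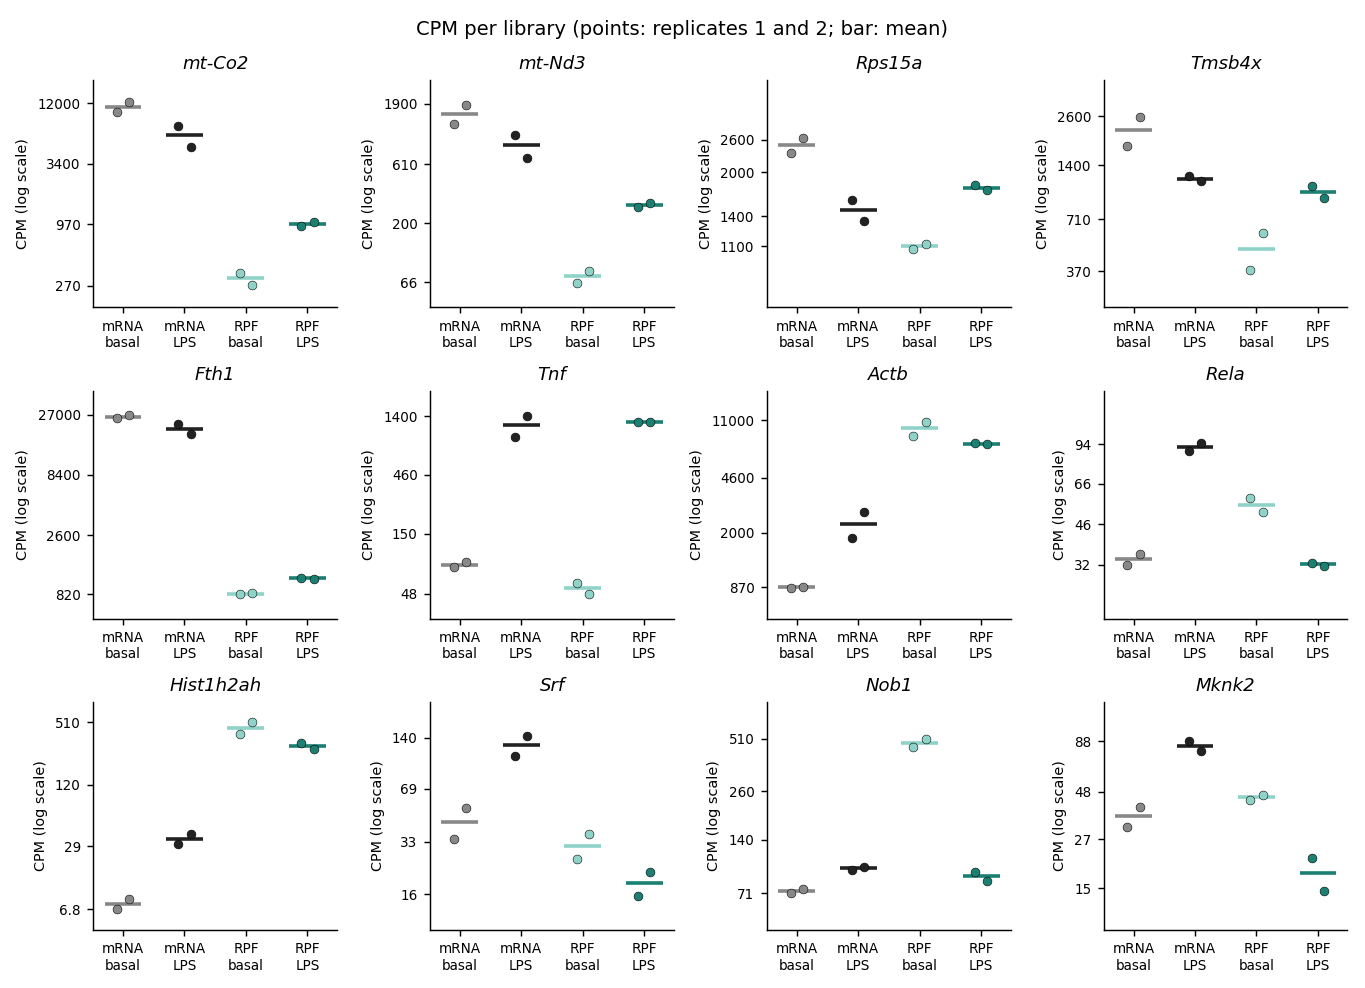
CPM in each library (log axis) for 12 genes described in the text, with points for replicates 1 and 2 and a bar for their mean, in mRNA and footprints of basal and LPS-treated cells. mt-Co2, mt-Nd3, Rps15a, Tmsb4x and Fth1 went down in mRNA and up in footprints, Actb, Rela, Srf and Hist1h2ah went up in mRNA with level or lower footprints, and Nob1 moved mainly in footprints.

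Ribosomal protein messages formed the broadest group. Of 47 large subunit genes, 42 rose in TE and none fell (median 0.84), and of 32 small subunit genes 27 rose and none fell (median 0.79). In mRNA 43 and 30 of them fell, with medians of -0.70 and -0.67. In footprints 11 and 5 rose and 1 of each list fell, with medians of 0.23 and 0.21. In each list the median member stood at 0.31 to 0.34 in both basal mRNA libraries and at -0.37 to -0.28 in both LPS ones, with the basal replicates close to each other. The calls held in each of the 8 leave-outs for 34 of the 42 and 23 of the 27. Without centring, 30 and 18 were higher and 1 of each was lower.

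The transcription starts of ribosomal protein genes are shown because the TOP tract lies there. Each window runs from 15 bases before to 15 bases from the start that RefSeq gives on GRCm38.p6, read 5′ to 3′ on the gene's strand. Capitals mark a C at the start with at least 4 C or T bases after it. The first 5 have this tract and were picked by value, as the highest TE changes among the 14 matched ribosomal protein genes with it (median 0.79). The next 4, genes described below whose TE rose (Rpl39, Tmsb4x, Tnf) or fell (Rela), do not.
Rps15a, chr7:118116133-118116162, minus strand: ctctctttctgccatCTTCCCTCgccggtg
Rps27, chr3:90213634-90213663, minus strand: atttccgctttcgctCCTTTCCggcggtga
Rpl38, chr11:114668565-114668594, plus strand: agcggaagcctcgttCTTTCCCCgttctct
Rpl14, chr9:120571502-120571531, plus strand: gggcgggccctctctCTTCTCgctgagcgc
Rps6, chr4:86857353-86857382, minus strand: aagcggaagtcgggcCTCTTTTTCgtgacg
Rpl39, chrX:37085208-37085237, minus strand: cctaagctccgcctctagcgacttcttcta
Tmsb4x, chrX:167209204-167209233, minus strand: cggactacgagtgacatcacctcatttgca
Tnf, chr17:35201993-35202022, minus strand: tctgcacagccagccagcagaagctccctc
Rela, chr19:5637526-5637555, plus strand: cgcgctgcggagcttgtagtcgggccggcc

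Among the small subunit proteins, Rps15a (ENSMUSG00000008683) had the highest TE change. Its mRNA fell from 2326 and 2636 CPM to 1599.9 and 1347 CPM and its footprints rose from 1074 and 1122 to 1802 and 1729 CPM, with no overlap of groups in either assay (TE 1.73 ± 0.13 (SE, adjusted p = 0.000169)). Rps27 (ENSMUSG00000090733) went from 496 and 640.4 to 339.8 and 366 CPM in mRNA and from 127 and 133 to 216 and 207 CPM in footprints (TE 1.67 ± 0.16 (SE, adjusted p = 0.00043)). In the large subunit, Rpl39 (ENSMUSG00000079641), a small protein near the peptide exit tunnel, led with a TE change of 1.83 ± 0.23 (SE, adjusted p = 0.00139). Its footprints rose from 359 and 274 to 575 and 538 CPM while its mRNA went from 636 and 914 to 495 and 435 CPM. Rpl17, Rpl22, Rpl5 and Rps3a1 measured 1.42, 1.33, 1.33 and 1.33. Of the genes whose starts are printed, Rpl38, Rpl14 and Rps6 measured 1.31, 1.17 and 1.06. They were picked after their values were seen, for high TE changes among the ribosomal protein genes with the tract. Rpl30 (ENSMUSG00000058600) reached a TE change of 0.78 by another route, with lower values in both assays: mRNA from 1415 and 1628 to 826 and 808 CPM and footprints from 744 and 698 to 516 and 569 CPM, of which the mRNA fall alone passed (footprint adjusted p = 0.0673). The members below 0 were Rplp0, a stalk protein, at -0.32 ± 0.11 (SE, adjusted p = 0.0955) and Rps2 at -0.44 ± 0.13 (SE, adjusted p = 0.0523). Both were singled out after their values were seen, neither passed in TE with 8 libraries, and they were the members whose footprints fell (801 and 846 to 549 and 465 CPM for Rps2). Rps2 passed as lower in 5 alternatives, without RPF LPS replicate 1 (-0.55, adjusted p = 0.045), without centring (-0.73), with a minimum mean of 30 CPM (-0.47), with log2(CPM + 4) (-0.45) and with limma-voom (-0.44). Rplp0 passed without centring (-0.62) and with the minimum of 30 CPM (-0.36). Ribosomal protein genes have many near-identical pseudogenes, among which the counting could split reads, so single members are uncertain. The paralog Rpl22l1 (ENSMUSG00000039221) measured 2.00 ± 0.22 (SE, adjusted p = 0.000686).

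The TOP tract itself was looked for in 5956 tested genes whose symbol matched a RefSeq promoter window, as a C at the annotated start followed by at least 4 bases that are each C or T, on the gene's strand only. It was present at 14 of 58 matched ribosomal protein genes (24.1%), against 2.79% of all tested genes matched and 2.51% of all 32851 windows of the table. Ribosomal protein genes with the tract had a median TE change of 0.79 and those without it 0.83. Outside the ribosomal protein and other TOP lists, 149 genes with the tract had a median of -0.01, with 4.70% called higher and 1.34% lower. The 5735 without it had -0.06, with 5.37% higher and 5.30% lower. An annotated start can lie several bases from the start used in these cells, so a missing tract says only that these letters are not at that position.

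Other messages of the translation apparatus moved less uniformly. Of 20 elongation factor and other TOP genes, 10 rose in TE and 1 fell (median 0.51; 4 and 2 without centring). Tpt1 (ENSMUSG00000060126), a TOP message for a growth-related protein, went from 2933 and 3229 to 2262 and 2158 CPM in mRNA and from 1110.4 and 1173 to 1394 and 1296 CPM in footprints (TE 1.01 ± 0.11 (SE, adjusted p = 0.000522)). Btf3 and Nap1l1, chaperones of nascent chains and of histones, measured 0.93 and 0.92. The member that fell was the translocation factor Eef2 (ENSMUSG00000034994), singled out after its value was seen. Its mRNA rose from 2028 and 2007 to 3057 and 3757 CPM and its footprints went from 2710.1 and 2596 to 2397 and 2252 CPM (TE -0.64 ± 0.14 (SE, adjusted p = 0.0142); -0.60, adjusted p = 0.067, without RPF LPS replicate 2). Eef1a1, which delivers tRNA to the ribosome, and the poly(A)-binding protein Pabpc1 measured 0.26 ± 0.08 (SE, adjusted p = 0.066) and 0.19 ± 0.14 (SE, adjusted p = 0.391), and both were under 0 without centring, while Eef1a1 passed as higher without RPF basal replicate 2 (0.32, adjusted p = 0.047) and with limma-voom (0.26). Of 35 initiation factors 11 rose and 1 fell, with a median of 0.08 (7 and 3 without centring). The genes that rose most were Eif3j1 (1.58), Eif2s2, the β subunit of eIF2 (1.48), and Eif1ax, which helps ribosomes scan (1.47). Eif2s2 had footprints of 361 and 380.1 CPM in basal cells and 524 and 534 CPM with LPS, over mRNA of 217 and 244 and 186 and 112 CPM. The kinase Mknk2 (ENSMUSG00000020190), which phosphorylates the cap-binding protein eIF4E, moved the other way: its mRNA rose from 31.2 and 40.1 to 88.1 and 78.6 CPM and its footprints fell from 43.5 and 46 to 21.7 and 14.6 CPM (TE -2.20 ± 0.32 (SE, adjusted p = 0.00256)). The Mknk2 mRNA rise of 0.97 (log2) became 0.83 without mRNA basal replicate 1 and was not called there.

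The nuclear-encoded respiratory chain had lower mRNA over footprints that were level in the median. Of 37 complex I subunits 12 rose in TE (median 0.55), and of 41 subunits of complexes II to V 19 rose (median 0.56), and none fell in either list (11 rose and 1 fell in the first without mRNA basal replicate 1). Without centring 6 rose and 3 fell in the first list, and 13 rose and 6 fell in the second. Their mRNA medians were -0.64 and -0.54, with 22 and 24 members lower, and their footprint medians lay at 0.00 and 0.01. The ATP synthase subunit Atp5k (ENSMUSG00000050856) was called in footprints too, which rose from 225 and 166 to 347 and 381 CPM while mRNA fell from 332 and 363 to 183 and 212 CPM (TE 2.02 ± 0.21 (SE, adjusted p = 0.000492)). Uqcr10 of complex III did the same, with 87.8 and 78.9 CPM of footprints rising to 139 and 122 CPM (TE 1.71 ± 0.19 (SE, adjusted p = 0.000759)). Cox7b and Uqcrb measured 1.48 and 1.46, and the complex I subunits Ndufs4 and Ndufa5 1.58 and 1.40. Ndufab1, the mitochondrial acyl carrier protein, had 367 and 168 CPM of basal mRNA, so its TE change of 2.34 became 1.74 (adjusted p = 0.000415) without basal replicate 1. Of 77 mitochondrial ribosomal proteins 13 rose and none fell (median 0.36; 4 higher and 4 lower without centring), Mrps33 (1.40) and Mrps25 (1.29) among them. Slirp (ENSMUSG00000021040), which stabilises mitochondrial mRNAs, and Pet100, an assembly factor of cytochrome oxidase, were called lower in mRNA and higher in footprints. Slirp went from 116 and 117 to 68.0 and 54.5 CPM in mRNA and from 67.9 and 63.1 to 111 and 107 CPM in footprints (TE 1.95 ± 0.22 (SE, adjusted p = 0.000826)), and Pet100 measured 2.08 ± 0.33 (SE, adjusted p = 0.00371). The Pet100 mRNA change of -0.94 became -0.81 without mRNA basal replicate 1 and was not called there.

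**Figure D3:**
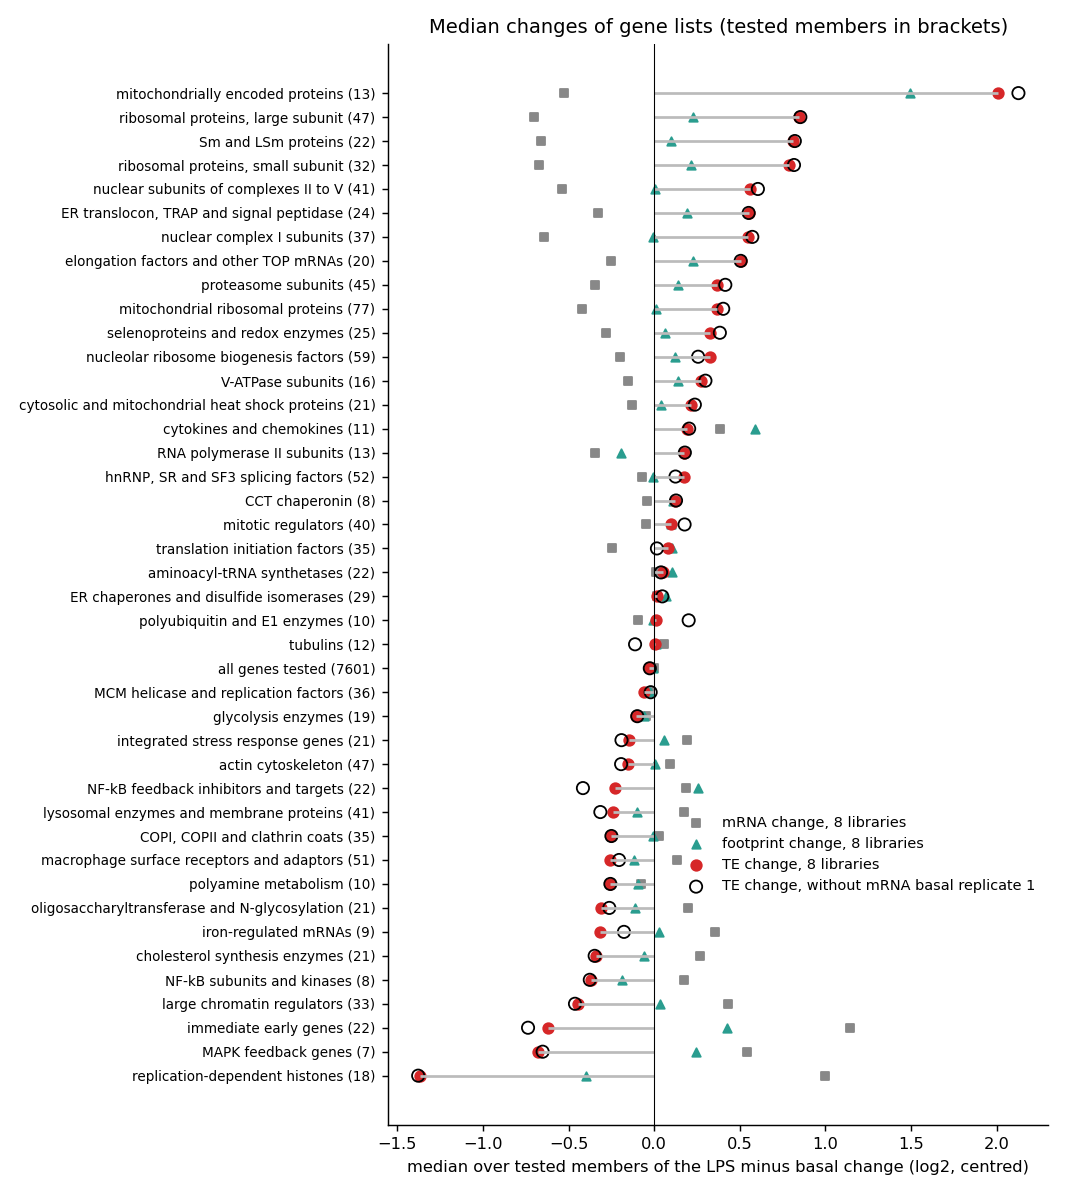
Median LPS minus basal changes (log2, centred) of the tested members of each gene list, with the number tested in brackets: squares for mRNA, triangles for footprints, filled circles for TE and open circles for TE without mRNA basal replicate 1. Mitochondrially encoded genes are at the top (TE 2.01), ribosomal proteins and Sm and LSm proteins next, and histones at the bottom (TE -1.37).

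Of 22 Sm and LSm proteins, which form the core of spliceosomal and decay particles, 10 rose in TE and none fell (median 0.81; mRNA -0.66, footprints 0.10; 4 higher without centring). Snrpf (ENSMUSG00000020018) went from 274 and 296 to 162 and 127 CPM in mRNA and from 229.7 and 173 to 297 and 297 CPM in footprints (TE 1.85 ± 0.22 (SE, adjusted p = 0.00119)). Snrpe and Snrpd3 measured 1.67 and 1.58. Of 45 proteasome subunits 14 rose and none fell (median 0.37), but without mRNA basal replicate 1 it was 9, and without centring 4 were higher and 4 lower. Psma3, a core particle subunit, measured 1.02 ± 0.18 (SE, adjusted p = 0.00676). Polr2k (ENSMUSG00000045996), a small subunit shared by the nuclear RNA polymerases, had 42.0 and 56.3 CPM of mRNA in basal cells and 30.1 and 14.5 CPM with LPS, and 25.2 and 34.2 against 61.5 and 73.0 CPM of footprints (TE 2.64 ± 0.45 (SE, adjusted p = 0.00562)). It was the 1 of 13 RNA polymerase II subunits that passed, in a list with medians of -0.35 in mRNA and -0.19 in footprints.

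The actin cytoskeleton list split. Of 47 members 10 rose in TE and 6 fell, with a median of -0.15, and without centring 3 were higher and 14 lower. The actin-sequestering thymosin Tmsb4x (ENSMUSG00000049775) had 1779 and 2578 CPM of mRNA in basal cells and 1226 and 1148 CPM with LPS, while its footprints rose from 374 and 598 to 1075 and 926 CPM. Neither assay's groups overlapped, and TE changed by 2.22 ± 0.28 (SE, adjusted p = 0.00147). Its paralog Tmsb10 moved alike at lower levels, with footprints from 37.4 and 35.5 to 69.9 and 59.6 CPM (TE 1.68 ± 0.27 (SE, adjusted p = 0.00383)). The myosin light chain Myl6 measured 1.18 ± 0.16 (SE, adjusted p = 0.00227). β-actin itself, Actb (ENSMUSG00000029580), went in the opposite direction: its mRNA rose from 868 and 877 to 1833 and 2741 CPM over footprints of 8689.7 and 10712 CPM in basal cells and 7734 and 7645 CPM with LPS (TE -1.39 ± 0.22 (SE, adjusted p = 0.00383)). Srf (ENSMUSG00000015605), the transcription factor that drives actin and immediate early genes, rose in mRNA from 34.6 and 52.5 to 109 and 143 CPM with footprints of 25.9 and 36.8 CPM before and 15.7 and 21.9 CPM after LPS (TE -1.94 ± 0.38 (SE, adjusted p = 0.00998)). The Srf call was lost without mRNA LPS replicate 2 (-1.75, adjusted p = 0.0541) and without RPF basal replicate 2 (-1.70, adjusted p = 0.0503).

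The ferritin chains parted. Both messages carry an iron-responsive element through which iron regulatory proteins are known to block their translation. Ferritin heavy chain, Fth1 (ENSMUSG00000024661), fell in mRNA from 25281 and 27009.9 CPM to 22801 and 18668 CPM and rose in footprints from 815 and 836 to 1129.7 and 1111 CPM, with no overlap, for a TE change of 1.08 ± 0.13 (SE, adjusted p = 0.00094). Ferritin light chain, Ftl1 (ENSMUSG00000050708), had 5917 and 6432 CPM of mRNA in basal cells and 6216 and 5595 CPM with LPS, and 166 and 214 against 148 and 128 CPM of footprints, groups that did not overlap in footprints but overlapped in mRNA. Its TE change was -0.09 ± 0.18 (SE, adjusted p = 0.776), and it changed sign without RPF basal replicate 2 or RPF LPS replicate 2. The difference between the chains was not tested. Of 9 iron-regulated genes tested, 1 rose, 1 fell and the median was -0.32.

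Histones had the lowest median of the lists, over the members that passed the level filter. The mRNA libraries were made from poly(A) RNA, and messages of replication-dependent histones end in a stem-loop in place of a poly(A) tail, so their mRNA values do not measure the whole message pool, and its part in this result was not tested. Of 60 such genes listed, 18 passed the level filter in both assays. Of the 18, 12 fell in TE and none rose, with a median of -1.37 (mRNA 1.0, footprints -0.40). Since the filter asks for a minimum mean over basal and LPS mRNA, members low in basal cells entered only where their LPS mRNA was high. Hist1h2ah and Hist1h2ad entered in this way, with basal mRNA under 10 CPM. Such entries favour higher mRNA and lower TE, so the count and the median do not stand for all histones. How far the filter moved them was not tested. Hist1h2ah (ENSMUSG00000069302), an H2A gene, had 6.78 and 8.66 CPM of mRNA in basal cells and 30.7 and 38.2 CPM with LPS, against 385 and 509 and 315 and 273 CPM of footprints (TE -2.32 ± 0.26 (SE, adjusted p = 0.000826)). Hist1h2ad, Hist1h2ag and Hist1h2ap measured -2.30, -1.82 and -1.72. These H2A genes are nearly identical, and reads could be split or shared among them, so they are uncertain as single genes. The 3 members above 0 were linker histones. Hist1h1e, singled out after its value was seen, had 1463 and 2.17 CPM of basal mRNA and 3.55 and 6.59 CPM with LPS, so its TE change of 3.73 (adjusted p = 0.406) rested on mRNA basal replicate 1 and was -0.73 without it.

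Of 11 cytokine and chemokine genes 5 rose in mRNA and 5 in footprints, and in TE 1 rose and 1 fell, 9.09% in each direction against 7.33% and 5.25% of all genes. Tnf (ENSMUSG00000024401), the cytokine TNF, rose in mRNA from 80.0 and 87.7 CPM to 949.8 and 1419 CPM and in footprints from 58.8 and 48.0 CPM to 1267 and 1263 CPM. The footprint rise of 4.61 (log2) exceeded the mRNA rise of 3.54, for a TE change of 1.07 ± 0.24 (SE, adjusted p = 0.0186). This call was lost without RPF basal replicate 2 (0.92, adjusted p = 0.0779), without RPF LPS replicate 1 or 2 (both 1.07, adjusted p = 0.066 and 0.0663), without centring (0.77, adjusted p = 0.0542), and with limma-voom on recovered reads (1.06, adjusted p = 0.102). The member that fell was the cytokine Tgfb1 at -0.67 ± 0.17 (SE, adjusted p = 0.0319). Its call held without mRNA basal replicate 1 and without mRNA LPS replicate 2, and was lost in the other 6 leave-outs, with the highest adjusted p of 0.1 (TE -0.63) without RPF basal replicate 2, and with all 12 libraries in 1 fit (-0.67, adjusted p = 0.0948). The chemokines Ccl3 and Ccl4 rose in mRNA by 1.22 and 1.61 and in footprints by 1.21 and 1.65, and their TE changes were -0.02 ± 0.24 (SE, adjusted p = 0.968) and 0.04 ± 0.24 (SE, adjusted p = 0.925). Cxcl2 rose by 4.64 in mRNA and 5.01 in footprints. Its basal mRNA of 2.71 and 12.5 CPM set the TE value, which was 0.37 ± 0.65 (SE, adjusted p = 0.748) with 8 libraries, 1.26 (adjusted p = 0.0304) without mRNA basal replicate 1 and -0.51 without replicate 2.

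Of 22 immediate early genes 14 rose in mRNA and 8 in footprints, with medians of 1.14 and 0.43. In TE none rose and 2 fell, Srf and Zfp36l2, with a median of -0.62 beside -0.03 over all genes. Over the leave-outs this median ranged from -0.88 to -0.30, the latter without mRNA LPS replicate 2, and 0 calls held in all 8. Without centring 5 members were lower. Jun (ENSMUSG00000052684), a subunit of AP-1, went from 18.3 and 18.4 to 136 and 258 CPM in mRNA and from 35.1 and 25 to 98.9 and 112 CPM in footprints (TE -1.19 ± 0.39 (SE, adjusted p = 0.0752)). Jun passed without mRNA LPS replicate 1 (-1.65) and without centring (-1.49, adjusted p = 0.0269). It also passed with all 12 libraries in 1 fit (-1.19, adjusted p = 0.0322) and with a minimum mean of 30 CPM (-1.23, adjusted p = 0.0463). Ier3 leaned the other way, with a footprint rise of 3.48 over an mRNA rise of 2.61 (TE 0.88 ± 0.29 (SE, adjusted p = 0.0783)). Ier2, Fos, Zfp36 and Dusp1 measured -0.90 ± 0.51 (SE, adjusted p = 0.269), 0.36 ± 0.61 (SE, adjusted p = 0.738), 0.07 ± 0.83 (SE, adjusted p = 0.968) and 0.92 ± 0.68 (SE, adjusted p = 0.394). Dusp1 passed without mRNA basal replicate 2 (1.81, adjusted p = 0.0163). At these SE a TE change of 1 (log2) would not have passed. Zfp36l2, a relative of the mRNA decay factor Zfp36, measured -1.16 ± 0.27 (SE, adjusted p = 0.0199), a call lost without mRNA LPS replicate 2 (-0.94), RPF basal replicate 1 (-1.05) or RPF LPS replicate 1 (-1.02).

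In the NF-kB pathway the subunits and kinases gave 1 TE call. Rela (ENSMUSG00000024927), the p65 subunit, rose in mRNA from 31.9 and 35.2 CPM to 88.7 and 94.5 CPM, while its footprints went from 58.0 and 51.3 CPM to 32.6 and 31.6 CPM, and neither assay's groups overlapped (TE -1.88 ± 0.24 (SE, adjusted p = 0.00156)). It was called in each of the 8 leave-outs and was 1 of 8 NF-kB subunits and kinases to pass. Of 22 NF-kB feedback inhibitors and targets 1 fell (4.55%, beside 5.25% of all tested genes). It was the heparan sulfate proteoglycan Sdc4, at -1.13 ± 0.26 (SE, adjusted p = 0.0186). The Sdc4 call was lost without mRNA LPS replicate 2 or any 1 of the 4 RPF libraries (-0.93 to -1.17). The inhibitors Nfkbia, Nfkbiz and Tnfaip3 rose in mRNA by 1.73, 3.65 and 2.51. In footprints Nfkbia and Nfkbiz rose by 1.26 and 3.51, and Tnfaip3 measured 1.49 ± 0.35 (SE, adjusted p = 0.0562). Their TE changes were -0.46 ± 0.25 (SE, adjusted p = 0.251), -0.14 ± 0.50 (SE, adjusted p = 0.877) and -1.02 ± 0.50 (SE, adjusted p = 0.206), and Nfkbia passed without mRNA LPS replicate 1 (-0.77, adjusted p = 0.029). Ppp1r15a, which brings a phosphatase to eIF2α, rose in both assays with a TE change of -0.63 ± 0.45 (SE, adjusted p = 0.381), and the prostaglandin synthase Ptgs2 measured -0.86 ± 0.42 (SE, adjusted p = 0.204). Footprints of Ppp1r15a were 3.05 and 4.60 CPM in basal cells and 32.6 and 18.2 CPM with LPS. Ptgs2 mRNA was 4.07 and 4.33 CPM in basal cells and 20.1 and 23.3 CPM with LPS. Both genes passed the level filter through these LPS values, and log2(CPM + 1) understates such changes. The adaptor Shc1 (ENSMUSG00000042626), which links receptors to Ras, had footprints of 80.9 and 98.0 CPM in basal cells and 24.1 and 31.6 CPM with LPS over mRNA of 42.0 and 47.1 and 64.4 and 87.9 CPM (TE -2.10 ± 0.30 (SE, adjusted p = 0.00244)). Atf4 and the glycolytic enzyme Gapdh measured -0.22 ± 0.18 (SE, adjusted p = 0.463) and -0.11 ± 0.09 (SE, adjusted p = 0.447), and Gapdh passed as lower without centring (-0.40, adjusted p = 0.0212).

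**Figure D4:**
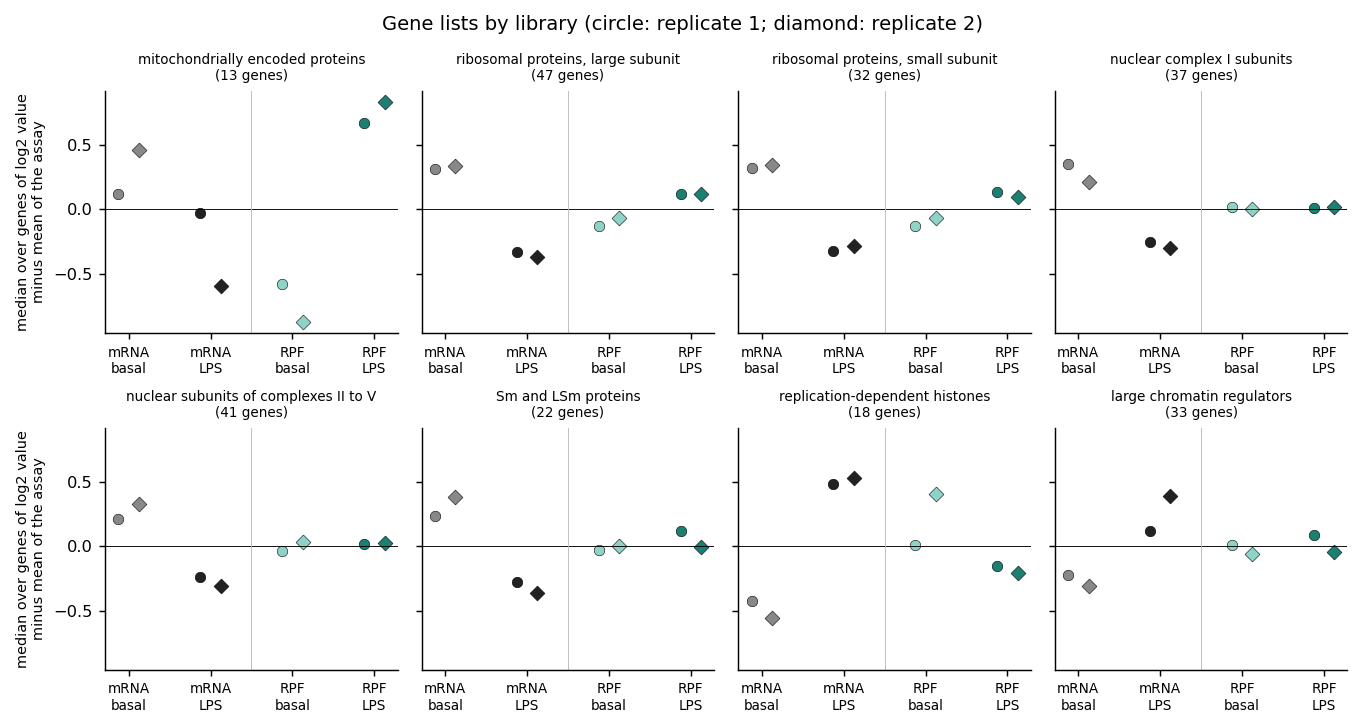
Median over the tested members of log2 value minus the assay mean, for 8 gene lists in each of the 8 libraries, with circles for replicate 1 and diamonds for replicate 2. In the ribosomal protein, respiratory chain, and Sm and LSm panels the mRNA libraries fall from basal to LPS while footprints move less (from -0.13 and -0.07 to 0.12 and 0.12 in the large subunit), and in the mitochondrially encoded panel the footprints rise from -0.58 and -0.87 to 0.67 and 0.83.

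Of 33 large chromatin regulators 4 fell in TE (12.1%) and none rose, with a median of -0.45 (mRNA 0.43, footprints 0.04). Of the 33, 3 lay above 0, against 3651 of the 7601 genes tested. The median ranged from -0.59 to -0.21 over the leave-outs, -0.21 being the value without mRNA LPS replicate 2, and 11 were lower without centring. The histone H3 methyltransferase Kmt2d (ENSMUSG00000048154) rose in mRNA from 30.5 and 40.6 to 80.4 and 103 CPM and had 94.6 and 105 CPM of footprints in basal cells and 50.6 and 73.0 CPM with LPS (TE -1.75 ± 0.30 (SE, adjusted p = 0.00607)). The remodeller subunit Arid1a measured -1.24 ± 0.28 (SE, adjusted p = 0.0185), a call lost without any 1 of the RPF libraries (-1.30 to -1.18).

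In the secretory pathway, of 24 translocon, TRAP and signal peptidase genes 6 rose and 2 fell, with a median of 0.56 (1 and 2 without centring). The channel subunit Sec61a1 (ENSMUSG00000030082) fell: its mRNA went from 71.2 and 68.2 to 178 and 164 CPM and its footprints from 501 and 541 to 426 and 439 CPM (TE -1.25 ± 0.16 (SE, adjusted p = 0.00152)). Srp14, a small protein of the signal recognition particle, rose by 1.08 ± 0.22 (SE, adjusted p = 0.0113). Of 21 oligosaccharyltransferase and N-glycosylation genes 4 fell (19.0%) and none rose, with a median of -0.31 and 7 lower without centring. Among those that fell was the glucosidase Mogs at -1.05 ± 0.18 (SE, adjusted p = 0.00529). Of 35 vesicle coat genes 8 fell and 1 rose (22.9% and 2.86%, median -0.25). Without mRNA basal replicate 1 the 8 became 5, and without centring 13 were lower and 0 higher. Of 41 lysosomal genes 4 fell and 1 rose (9.76% and 2.44%, median -0.24), with the granulin precursor Grn at -0.74 ± 0.12 (SE, adjusted p = 0.00521). Without centring 15 lysosomal genes were lower and 0 higher. Of 51 macrophage surface receptors and adaptors 3 rose and 3 fell, and the median was -0.26 (0 and 11 without centring). That is 5.88% in each direction, close to the 7.33% and 5.25% of all tested genes. The CSF-1 receptor Csf1r (ENSMUSG00000024621), on which macrophages depend, rose in mRNA from 462 and 484 to 734 and 928 CPM over footprints of 1104 and 1060.1 CPM and 879 and 858 CPM (TE -0.82 ± 0.15 (SE, adjusted p = 0.00753)). Lysozyme, Lyz2 (ENSMUSG00000069516), changed the other way, with mRNA falling from 1568 and 1649.9 to 1366 and 1219.5 CPM and footprints of 2061 and 2339.8 CPM before and 2592 and 2582 CPM after LPS (TE 0.85 ± 0.12 (SE, adjusted p = 0.0025)).

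Nucleolar and nuclear RNA-binding factors held changes in both directions. Of 59 nucleolar ribosome biogenesis factors 10 rose and 2 fell (16.9% and 3.39%, median 0.32). Without centring 4 of them were higher and 8 lower. Nob1 (ENSMUSG00000003848), the nuclease that completes the small subunit rRNA, fell: it had footprints of 456 and 508 CPM in basal cells and 92.8 and 82.7 CPM with LPS, over mRNA of 71.2 and 75.2 and 95.2 and 99.3 CPM (TE -2.55 ± 0.18 (SE, adjusted p = 0.000169)). Nucleolin, Ncl, and the box C/D protein Nop58 rose by 1.13 ± 0.19 (SE, adjusted p = 0.00527) and 1.42 ± 0.22 (SE, adjusted p = 0.00371), and the export adaptor Nmd3 measured 1.09. Of 52 hnRNP, SR and SF3 splicing factors 11 rose and 5 fell (21.2% and 9.62%, median 0.17). Without centring 4 splicing factors were higher and 15 lower. Hnrnpa2b1 and Hnrnpdl rose by 1.30 and 1.11. Hnrnpl (ENSMUSG00000015165) fell, with mRNA from 242 and 264 to 414 and 432 CPM and footprints from 694 and 739 to 502 and 516 CPM, each called (TE -0.94 ± 0.13 (SE, adjusted p = 0.00194)). The valyl-tRNA synthetase Vars and the synthetase scaffold Aimp1 were the called members of the 22 aminoacyl-tRNA synthetases, at -1.14 and 1.24. The ubiquitin-activating enzyme Uba1 measured -0.86 ± 0.14 (SE, adjusted p = 0.00485).

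Several of the highest single TE changes came from genes with few mRNA reads, few basal footprint reads or both. In the mRNA libraries 1 read is worth 0.439 to 0.678 CPM, and in the basal RPF libraries 0.658 to 0.763 CPM. The phosphatase Acp4 (ENSMUSG00000012777) had 28.2 and 1.97 CPM of footprints in basal cells and 309.9 and 179 CPM with LPS over mRNA of 14.9 and 7.58 and 8.87 and 10.1 CPM (TE 5.12 ± 1.16 (SE, adjusted p = 0.0186)). The basal footprint replicates differed widely, and the call was lost without any 1 of the mRNA LPS or RPF LPS libraries (4.73 to 5.51). Rfxank (ENSMUSG00000036120), a factor for MHC class II transcription, rose in footprints from 15.3 and 4.60 to 92.8 and 87.6 CPM with mRNA of 13.6 and 11.9 and 10.0 and 16.3 CPM (TE 3.54 ± 0.63 (SE, adjusted p = 0.00704)). Its basal footprints averaged just under the minimum of 10 CPM, so it passed the level filter through its LPS footprints, which favours a rise. The protocadherin Pcdhgc4 went from 15.3 and 5.92 to 131 and 186 CPM in footprints (TE 3.46 ± 0.56 (SE, adjusted p = 0.00449)), and Trappc8, a vesicle tethering subunit, from 282 and 126 to 950.1 and 1155 CPM (TE 2.30 ± 0.42 (SE, adjusted p = 0.00752)). Protocadherin genes of a cluster share exons, so Pcdhgc4 is uncertain. Pin4, a prolyl isomerase, and Hmgn5, a nucleosome-binding protein, measured 2.32 and 2.26. The predicted genes Gm10064, Gm4825 and Gm20594 measured 3.35, 3.34 and 2.95, and since such genes are often copies of others, their reads are uncertain. The Gm10064 call was lost without mRNA LPS replicate 2 (3.35), RPF basal replicate 2 (3.00) or RPF LPS replicate 1 (3.10), that of Gm4825 without RPF basal replicate 2 (3.24) or RPF LPS replicate 2 (3.28), and both with limma-voom.

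On the lower side the cadherin Dchs1 (ENSMUSG00000036862) had 6.10 and 4.33 CPM of mRNA in basal cells and 16.5 and 18.9 CPM with LPS, against 635 and 977 and 289 and 118 CPM of footprints (TE -3.39 ± 0.52 (SE, adjusted p = 0.00328); -3.53, adjusted p = 0.0645, with limma-voom). Footprints fell for the lipid phosphatase Plpp2 from 29.8 and 22.4 to 3.62 and 6.08 CPM (TE -2.77 ± 0.42 (SE, adjusted p = 0.00312)), the matrix protein Ccn2 from 64.9 and 107 to 24.1 and 14.6 CPM (TE -2.65 ± 0.45 (SE, adjusted p = 0.0057)), and cyclin K, Ccnk, from 428 and 714 to 153 and 80.3 CPM (TE -2.46 ± 0.42 (SE, adjusted p = 0.00537)). In these 3 the mRNA change did not pass. Plpp2 footprints averaged 4.85 CPM with LPS, under the minimum of 10 CPM, where 1 read is worth 1.21 or 1.22 CPM. Plpp2 passed the level filter through its basal footprints, which favours a fall. In the calcium channel Orai1 the mRNA rose from 10.8 and 26.5 to 49.1 and 72 CPM, with 256 and 202 CPM of footprints before and 109 and 128 CPM after LPS (TE -2.39 ± 0.46 (SE, adjusted p = 0.00923)). The fall of the collagen Col3a1, a marker of fibroblasts, rested partly on mRNA basal replicate 1, with basal mRNA of 3.39 and 16.2 CPM: TE -3.24 ± 0.65 (SE, adjusted p = 0.0113) became -2.29 without it, and the call was lost without mRNA LPS replicate 2 (-3.18) or RPF basal replicate 1 (-3.08). The Polycomb protein Cbx6 and Fam168b measured -2.29 and -2.09, the first not called without RPF basal replicate 2 (-2.05). Mean basal mRNA was 5.22 CPM for Dchs1, 5.49 CPM for Cbx6 and 9.81 CPM for Col3a1, under the minimum of 10 CPM. These genes passed the level filter through their LPS mRNA, which favours higher mRNA and lower TE. How far the filter moved them was not tested.

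Genes also differed by the base composition of their promoters, which the comparison did not use. Over the 5956 genes matched to a RefSeq window of 300 bases (GRCm38.p6), the median TE change went from 0.08 in the fifth of genes with the lowest GC content to -0.19 in the fifth with the highest. The share called higher went from 8.80% to 3.92% and the share called lower from 2.55% to 8.61%. The mRNA median went from -0.09 to 0.13 and the footprint median from 0.02 to -0.04. Across the genes the correlation of TE change with GC content was -0.15 (Pearson and Spearman), and -0.14 and -0.15 without ribosomal proteins, for 5898 genes that share the same 8 libraries. The base composition of the messages was not measured here.

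**Figure D5:**
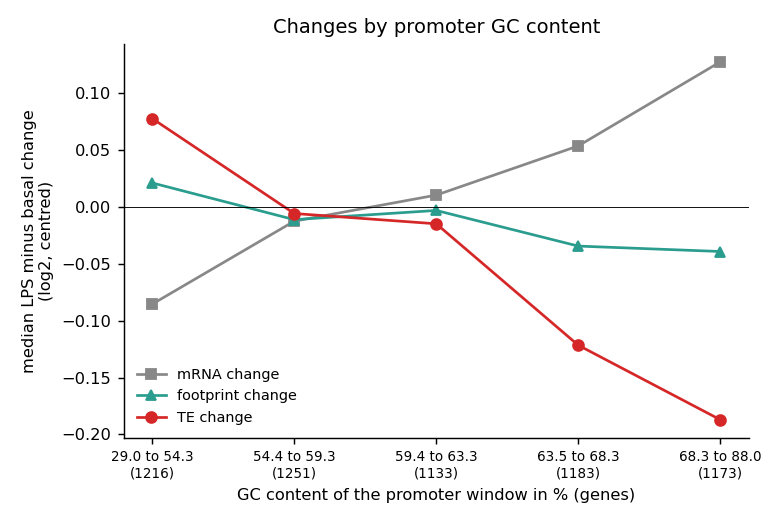
Median mRNA, footprint and TE changes (log2, centred) in 5 groups of genes ordered by GC content of the promoter window in %, with the number of genes in brackets. From the lowest to the highest GC group the mRNA median rises from -0.09 to 0.13 and the TE median falls from 0.08 to -0.19.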

How the data were processed

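Poly(A) mRNA and ribosome-protected fragments were sequenced on an Ion PGM, per the labels' protocols and the series' design text. The authors deposited 1 table per library of genes and values. Tested on the files, each deposited value is CPM plus 1: after 1 was subtracted, all values were whole multiples of the CPM of 1 read within 0.1 read. The aligner and genome build were not given in the sources used here. Gene positions are left out for that reason. Of 9621 gene IDs, 9521 matched a symbol.

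Genes with a mean CPM of at least 10 in the 4 mRNA libraries and in the 4 RPF libraries were tested with limma-trend (limma 3.58.1, R 4.3.3) on log2 of the deposited value, that is log2(CPM + 1), which understates changes of low genes. Each library was centred by the median over genes of its difference from the gene mean within its assay. 4 groups were fitted, without a replicate block. P values are two-sided, with Benjamini-Hochberg adjustment over the 7601 genes, and genes are called at 0.05. "Rose" and "fell" are used of called genes for TE or for the assay named. The test was first checked on simulated data with a chosen noise level. It called 0.0405% of genes without a TE change, 14.3% of those with a change of 1 (log2) and 8.89% of those with -1. Of changes of 2 and -2 it called 92% and 68.8%. A gene without a call can therefore have changed.

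The members and gene lists were chosen with earlier results of these data known. Named genes are the 15 highest and 15 lowest TE changes among genes called with 8 and with 7 libraries that kept their direction in every leave-out, up to 10 of each direction with opposite calls, up to 4 called members of each list, and a set of known genes, of which the text prints a part. Genes named otherwise are said to be chosen after their values were seen. The 18 long non-coding and small nucleolar RNAs of 1 list were not analysed here. Sequences were copied from RefSeq tables (GRCm38.p6). Alternatives were other centring, pseudocounts, filters, leave-outs, a block, 12 libraries, quality weights and, chosen after seeing the data, limma-voom on recovered reads.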

Additional observations from a re-analysis of the deposited data

How the results depend on the processing

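The TE count of 557 higher and 399 lower genes kept within 1.5 times of itself under TMM scaling, log2(CPM + 4), log2(CPM + 0.5), no filter on low values, a minimum mean of 30 CPM, 12 libraries in 1 fit, sample quality weights and limma-voom. Same-numbered samples did not deviate together (correlations of -0.12 to -0.01). The replicate block gave 486 higher and 310 lower, and changed the call of none of 130 genes followed through the alternatives. Without centring, TE gave 284 higher and 1072 lower, mRNA 1325 higher and 328 lower, and opposite calls 20 (mRNA higher) and 23 (mRNA lower). With a minimum mean of 30 CPM the opposite calls were 11 and 72. Limma-voom gave 41 RPF genes higher and 22 lower, with opposite calls of 0 and 13. Leaving out 1 library at a time gave 324 to 659 (TE higher), 129 to 443 (TE lower), 113 to 519 (mRNA higher), 278 to 659 (mRNA lower), 37 to 177 (RPF higher), 25 to 150 (RPF lower), 0 to 12 (mRNA higher with RPF lower) and 8 to 68 (mRNA lower with RPF higher). An edgeR test was planned and not run, and limma-voom on the recovered reads took its place.

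Without centring the median TE change went below 0 for initiation factors (-0.21), cytokines and chemokines (-0.10), V-ATPase subunits (-0.020), the CCT chaperonin (-0.17), heat shock proteins (-0.083), hnRNP, SR and SF3 factors (-0.12), RNA polymerase II subunits (-0.12) and mitotic regulators (-0.20). It also did so for tubulins (-0.29), ER chaperones (-0.28), polyubiquitin and E1 enzymes (-0.28) and aminoacyl-tRNA synthetases (-0.24), whose medians lay close above 0 with centring. Over the leave-outs the medians of NF-kB feedback inhibitors and targets (-0.46 to 0.014) and of replication factors (-0.062 to 0.0086) crossed 0. So did those of tubulins (-0.11 to 0.094), ER chaperones (-0.024 to 0.22), polyubiquitin and E1 enzymes (-0.075 to 0.20) and aminoacyl-tRNA synthetases (-0.016 to 0.12). The sign changed without centring for Eef1a1 (-0.033), Pabpc1 (-0.11), Ccl4 (-0.25) and Zfp36 (-0.23), with log2(CPM + 4) for Zfp36 (-0.18), and with TMM scaling for Ccl3 (0.00076). Over the leave-outs it changed for Ftl1 (-0.27 to 0.093), Cxcl2 (-0.51 to 1.26), Ccl3 (-0.20 to 0.16), Ccl4 (-0.12 to 0.21), Nfkbiz (-0.74 to 0.44), Fos (-0.10 to 0.81), Zfp36 (-0.83 to 0.96), Hist1h1e (-0.73 to 8.21) and mt-Atp8 (-0.29 to 1.04). None of these genes was called with 8 libraries. The cause was not tested. Over all the genes followed, 2317 fits under alternatives lost 92 calls and gained 20. RPF LPS libraries of 821946 and 829415 reads limit what can be seen in low genes.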

Other observations

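Other gene groups are given by their counts, to be read against the 7.33% of all tested genes that rose in TE and the 5.25% that fell. None of 8 CCT chaperonin subunits or 10 polyamine genes passed, and the medians were 0.12 and -0.26. Of 19 glycolysis enzymes 2 rose (median -0.11), against 0 without mRNA basal replicate 1 and 0 higher with 6 lower without centring. Of 21 integrated stress response genes 1 fell (median -0.15; 0 and 4 without centring), of 12 tubulins 1 rose and 1 fell (median 0.00; 0 and 2 without centring), and of 40 mitotic regulators 4 rose and 1 fell (median 0.10; 1 and 5 without centring). Of 29 ER chaperones 6 rose and 1 fell (median 0.02; 3 and 1 without mRNA basal replicate 1, 1 and 5 without centring), with the HSP90 paralog Hsp90b1 (ENSMUSG00000020048) at 0.86 ± 0.15 (SE, adjusted p = 0.00671). Of 21 cholesterol synthesis genes 1 rose and 2 fell (median -0.34; 1 and 4 without centring). Squalene synthase, Fdft1 (ENSMUSG00000021273), was the one that rose, with footprints of 84.7 and 65.1 CPM in basal cells and 218 and 164 CPM with LPS (TE 1.54 ± 0.31 (SE, adjusted p = 0.0122)), and its call was lost without RPF basal replicate 2 (1.35) or RPF LPS replicate 1 (1.35). Birc5, an inhibitor of apoptosis needed in mitosis, fell in both assays, with changes of -0.82 ± 0.15 (SE, adjusted p = 0.00523) in mRNA and -1.33 ± 0.15 (SE, adjusted p = 0.0015) in footprints, with a TE change of -0.51 ± 0.21 (SE, adjusted p = 0.134) that passed without centring (-0.81, adjusted p = 0.0283).

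The LPS + DEX libraries, which entered no test here, are set beside the others as values. With LPS + DEX, footprints of mt-Co2 were 206 and 206 CPM, lower than the LPS values of 927 and 1009 CPM and the basal values of 354 and 274 CPM. Its mRNA was 2778 and 5138 CPM, also below the basal 10021 and 12217 CPM. The mt-Nd3 footprints were 85.9 and 71.4 CPM, lower than the LPS values of 274 and 294 CPM and near the basal 65.6 and 81.5 CPM. Footprints of Rps15a were 1237 and 1255 CPM, between the basal and the LPS values, while its mRNA of 1195 and 1308 CPM was below the LPS libraries. Footprints of Fth1 were 739.7 and 729 CPM, under those of basal cells. Rfxank and Pcdhgc4 footprints were 9.68 and 4.91 CPM and 19.4 and 6.54 CPM, close to their basal values, whereas those of Trappc8 were 558 and 1028 CPM and those of Acp4 576 and 184 CPM, above it. Dchs1 footprints were 1686 and 1132 CPM, above both other conditions. Nob1 (99.2 and 100.4 CPM), Rela (33.3 and 47.4 CPM) and Mknk2 (22.4 and 26.2 CPM) had footprints below their basal values with LPS + DEX too, over mRNA of 103 and 91.3, 108 and 83.3 and 97.2 and 81.5 CPM.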
